A study of Homo sapiens with 30 samples.

Results

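The translation initiation and elongation factors are described here: genes of this set have a symbol that begins with EIF1 to EIF6 or with EEF1 or EEF2, pseudogenes left out. They number 70 of the 21112 genes in the files. The RNA came from 4 human cell lines of diffuse large B-cell lymphoma (DLBCL), a tumour of mature B cells. K422 and HT are lines of the germinal center B-cell (GCB) type, and TMD8 and OCI-Ly10 are lines of the activated B-cell (ABC) type. Cells were cultured with AZD8186, an inhibitor of the β and δ forms of PI3K, at 0.5 µM, or with its solvent DMSO, and RNA was taken at 6, 12, 18 and 24 h, except that TMD8 had no 12 h libraries. There was 1 AZD8186 and 1 DMSO library for each line and time, 15 pairs in all, 8 in GCB lines and 7 in ABC lines. Each line is a single established line, so a subtype is represented by 2 lines. No source says that the time points were separate cultures, so each p-value below is set against variation among single libraries that may be technical. The samples are bulk RNA, in which fewer cells of a kind and less RNA per cell cannot be told apart.

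Initiation begins when eIF2, a GTP-binding complex, brings the initiator tRNA to the small ribosomal subunit together with eIF1, eIF1A, eIF3 and eIF5. The mRNA is recruited through its cap by eIF4E, the scaffold eIF4G and the helicase eIF4A, and 4E-BPs compete with eIF4G for eIF4E. PI3K signalling reaches this step through mTOR complex 1, which phosphorylates the 4E-BPs and so frees eIF4E. The eIF2 kinases phosphorylate the α subunit of eIF2 under stress, which blocks eIF2B, the factor that exchanges GDP for GTP on eIF2. Elongation is driven by eEF1A, which carries aminoacyl-tRNA to the ribosome, and eEF2, which moves the ribosome along the mRNA. Many mRNAs of elongation factors, of some initiation factors and of ribosomal proteins begin with a C and a run of pyrimidines, the terminal oligopyrimidine (TOP) tract, and their translation depends on mTOR complex 1. The RNA levels reported here say nothing of translation, protein or phosphorylation.

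The sequence around the annotated start is shown first, because a pyrimidine tract there was more frequent among members that rose than among those that fell. RefSeq promoter windows (GRCh38.p14) were found for 56 of the 70 members. The windows below hold 10 bases before the start and 20 from it, 5′ to 3′, with the tract in capitals, which is a C at the annotated first base followed by at least 4 bases that are C or T, searched at this position on the gene's strand only. It stood at the start of 12 of the 56 matched members, or 21.4%, and of 4.07% of the 35116 windows in the table, which include those of genes not tested here. Members with the tract that rose in at least 1 subtype are, as examples,
EEF1A1, chr6:73521013-73521042, minus strand: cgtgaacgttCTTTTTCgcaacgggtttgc
EEF2, chr19:3985444-3985473, minus strand: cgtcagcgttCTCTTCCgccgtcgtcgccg
EIF3F, chr11:7987327-7987356, plus strand: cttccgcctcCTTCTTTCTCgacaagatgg
EIF4A2, chr3:186783567-186783596, plus strand: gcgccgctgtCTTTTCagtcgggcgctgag
EIF4B, chr12:53006446-53006475, plus strand: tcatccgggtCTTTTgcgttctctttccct
EIF2A, chr3:150546777-150546806, plus strand: cgagcggtttCTCTTTCCgggacaacatgg
EIF3M carries the tract and fell in GCB lines,
EIF3M, chr11:32583821-32583850, plus strand: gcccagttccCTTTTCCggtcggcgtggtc
For comparison, 3 members that fell in both subtypes begin with no such tract,
EIF2S1, chr14:67360318-67360347, plus strand: gaggttccgcatgcgcggtggagtgagcga
EIF5, chr14:103334227-103334256, plus strand: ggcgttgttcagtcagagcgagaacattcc
EIF4G1, chr3:184314596-184314625, plus strand: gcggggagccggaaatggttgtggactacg

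The libraries held 15820230 to 23579029 expected counts (median 18591638). Members took 3.89% to 5.85% of the counts under AZD8186 (median 5.02%, n = 15), against 3.55% to 4.72% with DMSO (median 4.53%, n = 15), and EEF1A1 alone took a median of 2.24% under AZD8186 and 1.80% with DMSO. Ribosomal protein genes took 13.6% to 25.8% under AZD8186, against 11.3% to 23.2% with DMSO. The share of members was higher under AZD8186 in all 15 pairs and that of members without EEF1A1 in 12, the exceptions being the 3 TMD8 pairs. The share of ribosomal protein genes was higher in 14 pairs, the exception being OCI-Ly10 at 6 h (21.4% under AZD8186 and 21.5% with DMSO). All 6 B-cell markers examined were at 1 TPM (transcript count scaled for length and library) or more in every library. Summed markers of T cells, of myeloid cells or of stroma came to at most 5.2 TPM in a library of HT, TMD8 or OCI-Ly10. K422 had 162 to 184 TPM over 5 T-cell markers, of which 2 were at 1 TPM or more and CD2 was at 0 in every K422 library. It had 98.1 to 187 TPM over 6 stromal markers, of which 1 was at 1 TPM or more in every K422 library. Of these, COL1A1, COL1A2, COL3A1 and PDGFRB were at 0 in every K422 library. The source of these marker levels and their part in the K422 results were not tested.

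Translation factors moved in both directions under AZD8186. In GCB lines 27 of 65 tested members fell, among them every subunit of eIF2B and every eIF5 and eIF6 gene, and 15 rose, led by the eIF2 kinase gene EIF2AK3, EIF4EBP3 and EEF2. In ABC lines 16 of 65 fell and 14 rose; those that rose were mainly elongation factors and eIF3 subunits. Members in GCB lines were lower in 41.5% and higher in 23.1% of cases, against 23.5% lower and 25.9% higher over all genes, so their share stood above the background in the lower direction only. In ABC lines 24.6% of members were lower and 21.5% higher, against 13.8% and 15.3% of all genes. A gene is called here at an adjusted p below 0.05 (edgeR, Benjamini-Hochberg over all genes tested). The median log2 fold change over the tested members was -0.080 in GCB lines and -0.040 in ABC lines, where the medians over all genes tested were 0.025 and 0.0072. Of the 70 members, 5 were below the filter on low counts in each subtype: EIF2S3B, EIF4E1B and the read-through gene EEF1AKMT4-ECE2 in both, EIF4E3 and EEF1A2 in GCB lines, and EEF1AKMT3 and EIF1AY in ABC lines. The counts in ABC lines depended on the scale: with library totals in place of TMM scaling 20 members fell and 10 rose, and on log2(TPM + 1) 31 fell and 5 rose. On that TPM scale the median of all genes in ABC lines was -0.15, and with that median taken out, an alternative chosen after seeing the data, 17 fell and 12 rose. On log2(TPM + 1) the ABC calls of EEF1B2, EEF1D, EEF2, EEF2K, EIF3E, EIF3G, EIF3H, EIF3K and EIF4A2 were lost. With the median taken out, only EIF3G and EIF3K lost their ABC calls, and only EIF2B3 gained one. Without the OCI-Ly10 pair at 18 h the ABC calls of EEF1D, EEF2, EIF1AD, EIF2S2, EIF3G, EIF3K, EIF4A3, EIF4E, EIF4E2 and EIF5A were lost. Without the OCI-Ly10 pair at 24 h those of EEF1D, EIF1AD, EIF2S2, EIF3G, EIF3K, EIF4A3, EIF4E2, EIF4EBP1 and EIF5A were lost. Leaving out the OCI-Ly10 pair at 12 h lost those of EIF1AD, EIF3G, EIF3K, EIF4A3, EIF4E2, EIF4EBP1 and EIF5A. Leaving out the TMD8 pair at 18 h lost those of EIF1AD, EIF2S2, EIF3G, EIF3K, EIF4A3, EIF4EBP1 and EIF5A. The fits without any other single pair lost only some of EIF1AD, EIF3G, EIF4A3 and EIF4EBP1.

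**Figure D1:**
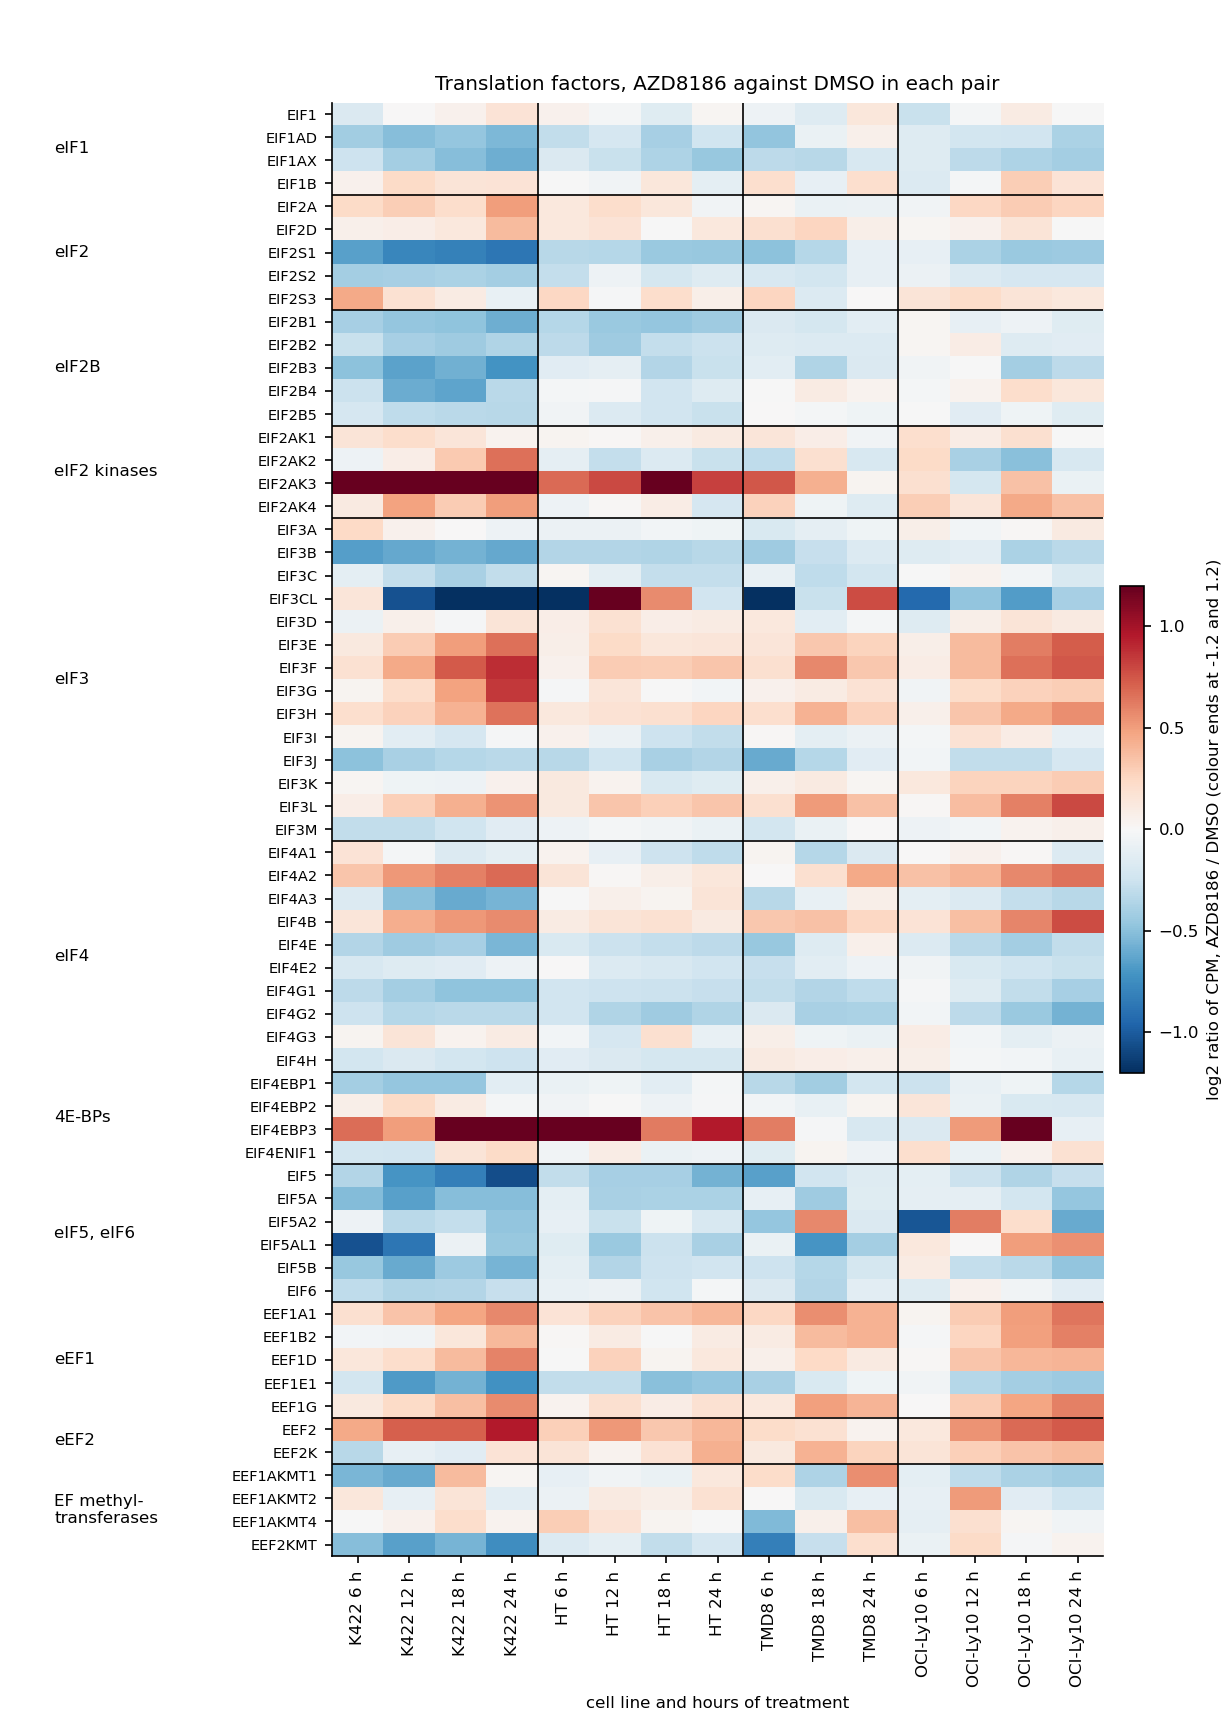
Log2 ratio of CPM (counts scaled for library size), AZD8186 over DMSO, for the 63 members tested in both subtypes (rows, by functional group) in each of the 15 pairs (columns, by cell line and hours of treatment), red for higher and blue for lower under AZD8186. EIF2AK3 and EIF4EBP3 are dark red in K422 and HT, EIF2B1 and EIF2B2 are blue there, EIF3CL changes sign from pair to pair, and EEF1A1, EEF2, EIF3F and EIF4B are above 0 in every pair.

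Both subtypes shared much of the pattern. In all, 15 members fell in both, which is 55.6% of those that fell in GCB lines and 93.8% of those that fell in ABC lines, and 10 rose in both, which is 66.7% of the GCB and 71.4% of the ABC calls. Over all genes 846 fell in both, where 2576 fell in GCB lines and 1577 in ABC lines, and 913 rose in both, where 2840 rose in GCB lines and 1750 in ABC lines. Of the genes tested in both subtypes, 15 of 63 members fell in both, against 8.29% of all genes, and 10 of 63 rose in both, against 8.95%. None of the 63 members tested in both was called in opposite directions, against 1.85% of all genes. In CPM, EEF1E1, EIF1AX, EIF2B3, EIF2S1, EIF2S2, EIF3B, EIF3J, EIF4EBP1, EIF4G1, EIF4G2, EIF5 and EIF5A were lower under AZD8186 in all 15 pairs. These are 12 of 63 members, against 5.32% of all genes. Also in CPM, EEF1A1, EEF1G, EEF2, EIF3E, EIF3F, EIF3H, EIF3L, EIF4A2 and EIF4B were higher in all 15 pairs. These are 9 of 63 members, against 4.2% of all genes. On the TPM scale EEF2 was lower under AZD8186 in TMD8 at 18 h (1356 TPM against 1453 with DMSO) and 24 h (1336 against 1594). EEF1G, EIF3E, EIF3H, EIF4A2 and EIF4B were also each lower in TPM in a pair or more. EEF1E1 and EIF4G1 were higher in TPM in OCI-Ly10 at 6 h.

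Among the elongation factors EEF1A1, EEF1D, EEF1G and EEF2 rose in both subtypes, EEF1B2 and EEF2K rose in ABC lines, and EEF1E1 fell in both. EEF1A1, at chr6:73515750-73523797, minus strand (GENCODE 29, GRCh38), encodes eEF1A. In K422 it had 14273, 16113, 16359.9 and 18026 CPM under AZD8186 at 6, 12, 18 and 24 h, against 12493, 12723, 11793 and 12062 CPM with DMSO. In HT it had 19721, 21583, 21985 and 22833 CPM under AZD8186 at 6, 12, 18 and 24 h, against 17644, 17783, 17380.0 and 17362 CPM with DMSO. The treated libraries did not overlap with the DMSO libraries in either line (log2 fold change 0.34 ± 0.054 SE, adjusted p = 1.17e-04 in GCB lines). In TMD8 it had 27519.5, 28691 and 25156 CPM under AZD8186 at 6, 18 and 24 h, against 23192, 19525 and 18795 CPM with DMSO. In OCI-Ly10 it had 21244, 23181, 26784 and 28026 CPM under AZD8186 at 6, 12, 18 and 24 h, against 20796, 18762, 18949 and 17944 CPM with DMSO. The ABC libraries were again all higher under AZD8186 within each line, by the least in OCI-Ly10 at 6 h (log2 fold change 0.39 ± 0.088 SE, adjusted p = 0.00526 in ABC lines). In TPM, which allows a comparison between genes, EEF1A1 was the most abundant member in every line, at 5960.0 ± 469.9 TPM under AZD8186 and 4802 ± 132 TPM with DMSO in K422 (SD, n = 4 each). Its reads may be shared with its many processed pseudogenes, so its level is uncertain to that extent.

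EEF2, at chr19:3976056-3985469, minus strand, encodes the translocase. It had 5699 to 8336 CPM under AZD8186 (median 7364, n = 8), against 3765 to 6487 CPM with DMSO (median 4985, n = 8) in GCB lines, and 3537 to 8745 CPM under AZD8186 (median 5739, n = 7), against 3429.8 to 5371 CPM with DMSO (median 5155, n = 7) in ABC lines. It rose in both subtypes (log2 fold change 0.54 ± 0.0676 SE, adjusted p = 1.76e-05 in GCB lines and 0.37 ± 0.102, adjusted p = 0.0146 in ABC lines) and was higher in CPM in all 15 pairs. In TPM it was lower under AZD8186 in TMD8 at 18 and 24 h. The increase was largest in K422, with log2 ratios of 0.45, 0.71, 0.72 and 0.95 at 6, 12, 18 and 24 h, and smallest in TMD8, with 0.22, 0.18 and 0.044 at 6, 18 and 24 h. On log2(TPM + 1) EEF2 no longer passed in ABC lines (0.16, adjusted p = 0.142). EEF2K encodes the kinase that phosphorylates and inhibits eEF2, and signalling through mTOR complex 1 restrains that kinase. It rose in ABC lines (log2 fold change 0.29 ± 0.0687 SE, adjusted p = 0.00744, higher in CPM in 7 of 7 pairs) and did not pass in GCB lines (0.046 ± 0.0784, adjusted p = 0.648). It did not pass in ABC lines with library totals (0.20, adjusted p = 0.053) or on log2(TPM + 1) (0.071, adjusted p = 0.481). The difference between subtypes did not pass either (-0.23 ± 0.0964, adjusted p = 0.127).

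EEF1B2, EEF1D and EEF1G encode the subunits of eEF1B, which recharges eEF1A with GTP. EEF1G had 2863 to 4743 CPM under AZD8186 (median 4063, n = 8), against 2400.1 to 4431 CPM with DMSO (median 3388, n = 8) in GCB lines and rose (log2 fold change 0.22 ± 0.0569 SE, adjusted p = 0.00469), as it did in ABC lines (0.35 ± 0.0822, adjusted p = 0.00688). EEF1D rose in GCB (0.22 ± 0.0605, adjusted p = 0.00736) and ABC lines (0.23 ± 0.0603, adjusted p = 0.0126), while EEF1B2 rose in ABC lines (0.32 ± 0.0788, adjusted p = 0.00829) and did not pass in GCB lines (0.083 ± 0.0508, adjusted p = 0.185). EEF1E1, whose product belongs to the multi-tRNA synthetase complex despite its symbol, fell in both. It had 29.6 to 51.8 CPM under AZD8186 (median 40.5, n = 8), against 43.8 to 63.7 CPM with DMSO (median 53.2, n = 8) in GCB lines (log2 fold change -0.47 ± 0.0563 SE, adjusted p = 1.39e-05) and 29.3 to 39.3 CPM under AZD8186 (median 32.1, n = 7), against 33.2 to 42.9 CPM with DMSO (median 39.7, n = 7) in ABC lines (-0.26 ± 0.0644, adjusted p = 0.00799). EEF1A2, the form of eEF1A of muscle and neurons, was tested in ABC lines only and did not pass (0.21 ± 0.314, adjusted p = 0.655). Summed over the eEF1 genes, K422 had 11024 ± 737 TPM under AZD8186 and 9331 ± 141 TPM with DMSO, and TMD8 had 15782 ± 333 TPM under AZD8186 and 14336 ± 526.2 TPM with DMSO (SD, n = 4 each and 3 each). Of the methyltransferases that act on elongation factors, 1 of 5 tested was called in GCB lines and 0 of 4 in ABC lines, where 0 had an unadjusted p below 0.05 in edgeR and 0 was called by DESeq2 or limma-voom. The shares of all genes were 23.5% lower and 25.9% higher in GCB lines and 13.8% and 15.3% in ABC lines. The called gene was EEF2KMT, which methylates eEF2 (log2 fold change -0.41 ± 0.0699 SE, adjusted p = 2.50e-04, lower in 8 of 8 pairs). EEF1AKMT1 (-0.080 in GCB and -0.14 in ABC lines) and EEF1AKMT4 (0.095 and -0.00019) did not pass.

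**Figure D2:**
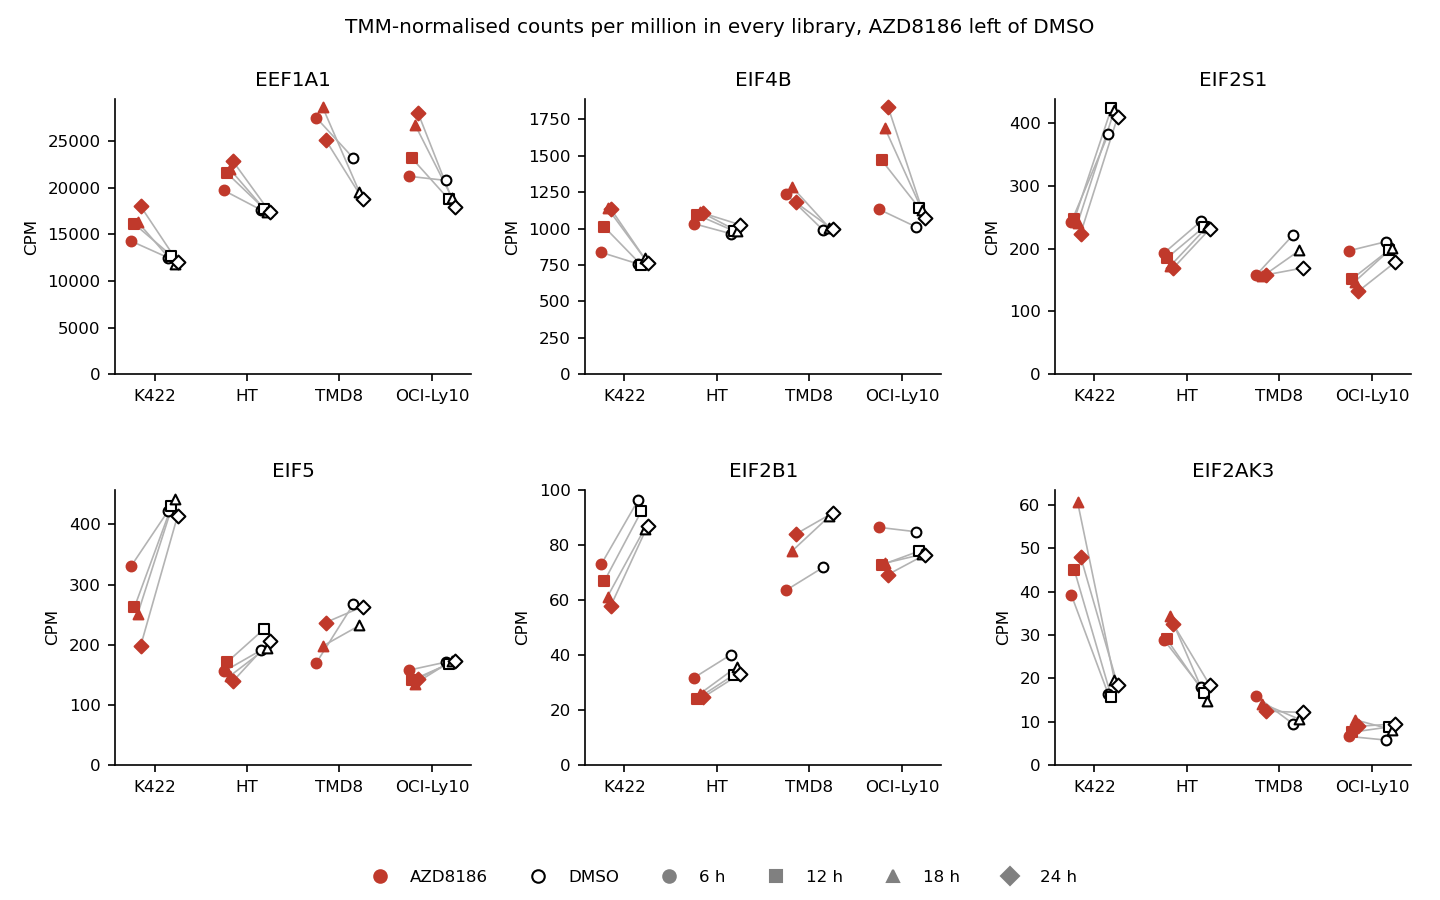
TMM-normalised CPM of 6 members in every library (y axis, from 0), by cell line, with the AZD8186 library left of its DMSO library and a line joining each pair; marker shapes give the hours of treatment. GCB and ABC libraries were normalised separately. EEF1A1 and EIF4B are higher and EIF2S1 and EIF5 lower under AZD8186 in each of the 15 pairs, while EIF2B1 and EIF2AK3 differ most in K422 and HT.

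The 14 eIF3 genes, which encode the large scaffold on the small ribosomal subunit, were called in both directions. In GCB lines 4 fell and 4 rose (28.6% each), near the 23.5% and 25.9% of all genes. In ABC lines 2 fell (14.3%), near the 13.8% of all genes, and 6 rose (42.9%), against 15.3%. Subunits that budding yeast lacks (EIF3D, EIF3E, EIF3F, EIF3H, EIF3K, EIF3L and EIF3M) had a median log2 fold change of 0.27 in GCB lines, with 4 of 7 higher and 1 lower, and 0.33 in ABC lines, with 5 of 7 higher and 0 lower. Those with a yeast counterpart (EIF3A, EIF3B, EIF3C, EIF3G, EIF3I and EIF3J) had medians of -0.16 and -0.071, with 3 of 6 lower and 0 higher in GCB lines and 2 of 6 lower and 1 higher in ABC lines. This division was made after the values were seen. EIF3F, at chr11:7970251-8001862, plus strand, had 364, 439.6, 459 and 536 CPM under AZD8186 at 6, 12, 18 and 24 h, against 321, 321, 275 and 289.5 CPM with DMSO in K422. It had 318, 365, 423 and 409 CPM under AZD8186 at 6, 12, 18 and 24 h, against 299, 280.1, 268 and 244 CPM with DMSO in OCI-Ly10. In both lines the treated libraries lay above all DMSO libraries, and the gap widened with time. EIF3F rose in GCB (log2 fold change 0.41 ± 0.0766 SE, adjusted p = 5.19e-04) and in ABC lines (0.43 ± 0.0784, adjusted p = 0.00157), as did EIF3H (0.29 ± 0.053, adjusted p = 4.62e-04 in GCB and 0.33 ± 0.0665, adjusted p = 0.00268 in ABC lines). EIF3H did not pass in ABC lines on log2(TPM + 1) (0.13, adjusted p = 0.0729). EIF3E and EIF3L rose by 0.27 and 0.30 in GCB lines and by 0.37 and 0.41 in ABC lines.

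EIF3B, a core subunit, fell in every line but TMD8, in which no member was called. It had 293, 283, 342 and 291 CPM under AZD8186 at 6, 12, 18 and 24 h, against 463, 435, 508 and 445 CPM with DMSO in K422. HT libraries showed 521, 438, 509 and 472 CPM under AZD8186 at 6, 12, 18 and 24 h, against 666, 558, 656 and 595 CPM with DMSO. Treated and DMSO libraries did not overlap in either line (log2 fold change -0.48 ± 0.0513 SE, adjusted p = 4.70e-06 in GCB lines and -0.27 ± 0.0597, adjusted p = 0.00517 in ABC lines). EIF3J, which binds loosely to the complex, fell as well (-0.36 ± 0.0447, adjusted p = 1.96e-05 and -0.27 ± 0.0638, adjusted p = 0.00629). EIF3C and EIF3M fell in GCB lines (-0.22 and -0.15) and were not called in ABC lines, and EIF3K and EIF3G rose in ABC lines (0.17 and 0.15), with no test of a difference between subtypes passed. On log2(TPM + 1), before its median was taken out, EIF3K and EIF3G had values of -0.031 and -0.043 in ABC lines. EIF3C and its near-identical copy EIF3CL share reads, so that their separate values are uncertain.

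Of the eIF4 genes, 5 of 10 fell in GCB lines (50%), against 23.5% of all genes, and 2 rose (20%), below the 25.9%. In ABC lines 5 of 11 fell (45.5%), against 13.8% of all genes, and 2 rose (18.2%), near the 15.3%. Those that rose were EIF4A2 and EIF4B in each subtype. EIF4B, which stimulates the eIF4A helicase and is a target of S6 kinase, had 1132, 1467, 1688 and 1835 CPM under AZD8186 at 6, 12, 18 and 24 h, against 1012, 1143, 1128 and 1069 CPM with DMSO in OCI-Ly10, at chr12:53006158-53042209, plus strand. In K422 it had 836, 1009.7, 1140.1 and 1137 CPM under AZD8186 at 6, 12, 18 and 24 h, against 756, 749, 795 and 765 CPM with DMSO. In these lines the treated libraries lay above the DMSO libraries except that OCI-Ly10 at 6 h under AZD8186 was below the DMSO library at 12 h (log2 fold change 0.28 ± 0.0607 SE, adjusted p = 0.0016 in GCB lines and 0.41 ± 0.0834, adjusted p = 0.00306 in ABC lines). EIF4A2 encodes 1 of the paralogous helicases. It rose by 0.31 ± 0.0703, adjusted p = 0.00191 in GCB lines and 0.37 ± 0.0725, adjusted p = 0.00233 in ABC lines, while its paralog EIF4A1 did not pass (-0.093 ± 0.0502, adjusted p = 0.134 and -0.081 ± 0.0642, adjusted p = 0.359). EIF4A2 did not pass in ABC lines on log2(TPM + 1) (0.17, adjusted p = 0.0634). TMD8 had 309, 296 and 399 CPM under AZD8186 at 6, 18 and 24 h, against 308, 259 and 292 CPM with DMSO for EIF4A2. OCI-Ly10 had 60.5, 80.3, 62.5 and 84.5 CPM under AZD8186 at 6, 12, 18 and 24 h, against 47.4, 60.3, 42 and 53.8 CPM with DMSO. Every OCI-Ly10 library was thus below every TMD8 library for this gene.

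EIF4E and EIF4G1 of the cap-binding complex fell in both subtypes. EIF4G1, the scaffold that joins eIF4E, eIF4A and eIF3, had 772 to 1025 CPM under AZD8186 (median 867, n = 8), against 927 to 1342 CPM with DMSO (median 1099, n = 8) in GCB lines, and 574 to 834 CPM under AZD8186 (median 723, n = 7), against 730.0 to 1032 CPM with DMSO (median 815, n = 7) in ABC lines. It was lower in CPM in all 15 pairs (log2 fold change -0.34 ± 0.0421 SE, adjusted p = 1.85e-05 in GCB lines and -0.26 ± 0.0619, adjusted p = 0.00757 in ABC lines). EIF4E, the cap-binding protein, had 80.1, 76.3, 77.5 and 69.3 CPM under AZD8186 at 6, 12, 18 and 24 h, against 103, 102, 102 and 102 CPM with DMSO in K422. The HT values were 114, 105, 102 and 104 CPM under AZD8186 at 6, 12, 18 and 24 h, against 129, 125, 125 and 129 CPM with DMSO. No treated library reached the DMSO range in either line (log2 fold change -0.34 ± 0.0433 SE, adjusted p = 1.94e-05 in GCB lines). It also fell in ABC lines (-0.25 ± 0.0675, adjusted p = 0.0145), lower in 6 of 7 pairs. EIF4G2, a relative of eIF4G1 that does not bind eIF4E, and EIF4E2, a cap-binding relative of eIF4E, fell in both subtypes (-0.32 and -0.14 in GCB lines, -0.33 and -0.17 in ABC lines). EIF4A3, the helicase of the exon junction complex, fell in ABC lines (-0.18 ± 0.0595, adjusted p = 0.037) and did not pass over both GCB lines (-0.19 ± 0.0883, adjusted p = 0.0811), where it passed on log2(TPM + 1) (-0.25, adjusted p = 0.0465). With the median of that scale taken out, it did not pass in GCB lines. The ABC call of EIF4A3 was lost without the TMD8 pair at 6 or 18 h or the OCI-Ly10 pair at 12, 18 or 24 h. EIF4H, a smaller partner of eIF4A, fell in GCB lines only (log2 fold change -0.20 ± 0.0367 SE, adjusted p = 4.30e-04, against 0.025 ± 0.0514, adjusted p = 0.745 in ABC lines).

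The 3 4E-BP genes each behaved differently. EIF4EBP1, which encodes the best known of these repressors of eIF4E, fell in both subtypes (log2 fold change -0.22 ± 0.0671 SE, adjusted p = 0.0145 in GCB lines and -0.25 ± 0.0879, adjusted p = 0.0441 in ABC lines) and was lower in all 15 pairs. Its ABC call was lost without the OCI-Ly10 pair at 12 or 24 h or the TMD8 pair at 18 or 24 h. Its GCB call was lost without the K422 pair at 18 h. In K422 it had 62.5, 69.2, 60.1 and 71.0 CPM under AZD8186 at 6, 12, 18 and 24 h, against 83.1, 95.2, 82.9 and 77.3 CPM with DMSO. Levels in HT were 101, 89.4, 96.4 and 97.9 CPM under AZD8186 at 6, 12, 18 and 24 h, against 107, 92.6, 105 and 99.5 CPM with DMSO. The K422 libraries did not overlap, while those of HT did. EIF4EBP1 was also the most abundant of the 3 by mean TPM in each line and treatment. EIF4EBP2 did not pass in either subtype (0.032 ± 0.047, adjusted p = 0.589 and -0.056 ± 0.0538, adjusted p = 0.454), although it passed as lower in ABC lines on log2(TPM + 1) (-0.25, adjusted p = 0.0233). With the median of that scale taken out, it did not pass there. EIF4ENIF1, which encodes an eIF4E-binding shuttling protein, did not pass either (-0.018 ± 0.0564, adjusted p = 0.807 and 0.025 ± 0.0605, adjusted p = 0.787). EIF4EBP3 rose in GCB lines. It had 3.11, 3.97, 5.5 and 5.05 CPM under AZD8186 at 6, 12, 18 and 24 h, against 1.92, 2.78, 1.54 and 1.71 CPM with DMSO in K422. HT gave 6.55, 6.6, 5.01 and 5.74 CPM under AZD8186 at 6, 12, 18 and 24 h, against 2.8, 1.97, 3.21 and 2.93 CPM with DMSO. All treated libraries lay above all DMSO libraries of their line (log2 fold change 1.14 ± 0.156 SE, adjusted p = 4.02e-05). In ABC lines its level was 0.883 to 2.93 CPM under AZD8186 (median 1.63, n = 7), against 0.293 to 2.17 CPM with DMSO (median 1.83, n = 7), and it did not pass (0.22 ± 0.245, adjusted p = 0.532). With a filter of at least 5 CPM in 7 libraries it was not tested in GCB lines. It lies inside a read-through gene, ANKHD1-EIF4EBP3, from which its reads cannot be told apart with certainty. That read-through gene changed by 0.25 in GCB lines (adjusted p = 0.0372) and ANKHD1 by -0.018 (adjusted p = 0.789).

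The subunits of eIF2 did not move together. EIF2S1 (the α subunit, at chr14:67359997-67386516, plus strand) had 243, 247, 240.2 and 224 CPM under AZD8186 at 6, 12, 18 and 24 h, against 382, 424, 421 and 409.5 CPM with DMSO in K422. In HT the values were 193, 185, 172 and 169 CPM under AZD8186 at 6, 12, 18 and 24 h, against 243, 234, 234 and 232 CPM with DMSO. In TMD8 it had 158, 156 and 158 CPM under AZD8186 at 6, 18 and 24 h, against 222, 197 and 169 CPM with DMSO. OCI-Ly10 had 197, 152, 148 and 132 CPM under AZD8186 at 6, 12, 18 and 24 h, against 211, 198, 201 and 178 CPM with DMSO. Treated libraries lay below all DMSO libraries in K422, HT and TMD8, and in OCI-Ly10 only the treated library at 6 h was within the DMSO range. EIF2S1 fell in GCB (log2 fold change -0.59 ± 0.0634 SE, adjusted p = 5.26e-06) and ABC lines (-0.32 ± 0.0621, adjusted p = 0.00209). EIF2S2 (the β subunit) fell less (-0.29 ± 0.0485, adjusted p = 2.12e-04 and -0.16 ± 0.0459, adjusted p = 0.0164). EIF2S3 (the γ subunit) rose in GCB lines at the threshold (0.14 ± 0.0572, adjusted p = 0.0498), a call that was lost with the pair as a replicate block, and did not pass in ABC lines (0.11 ± 0.0653, adjusted p = 0.212). This GCB call was also lost with library totals, on each TPM scale, with no filter on low counts and without most single pairs. EIF2A and EIF2D are not subunits of eIF2 and encode other proteins that bind initiator tRNA. Both rose in GCB lines (0.21, adjusted p = 0.00307, and 0.13, adjusted p = 0.0249), and neither passed in ABC lines.

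All 5 eIF2B genes fell in GCB lines, with a median log2 fold change of -0.34, and 0 of 5 was called in ABC lines (median -0.093), where 1 had an unadjusted p below 0.05 in edgeR, 1 was called by DESeq2 and 0 by limma-voom. The shares of all genes were 23.5% lower in GCB lines, and 13.8% lower and 15.3% higher in ABC lines. EIF2B1 (the α subunit, at chr12:123620406-123633766, minus strand) had 73.1, 67.0, 61.3 and 57.8 CPM under AZD8186 at 6, 12, 18 and 24 h, against 96.6, 92.4, 86.0 and 87.0 CPM with DMSO in K422. In HT it had 31.7, 24.1, 26.0 and 24.6 CPM under AZD8186 at 6, 12, 18 and 24 h, against 40.1, 32.9, 35.8 and 33.2 CPM with DMSO. The treated libraries were below the DMSO libraries throughout, in both lines. ABC lines had 63.7 to 86.5 CPM under AZD8186 (median 73.5, n = 7), against 72.0 to 91.7 CPM with DMSO (median 77.8, n = 7), which overlapped. The fold change was -0.45 ± 0.0455, adjusted p = 2.82e-06 in GCB lines and -0.11 ± 0.0801, adjusted p = 0.323 in ABC lines. EIF2B2 fell in GCB lines (-0.34 ± 0.0413, adjusted p = 1.32e-05), with -0.093 ± 0.057, adjusted p = 0.235 in ABC lines. EIF2B3 fell in GCB lines (-0.42 ± 0.0701, adjusted p = 2.09e-04), and was lower in all 15 pairs. In ABC lines its value was -0.20 ± 0.0767, adjusted p = 0.0608, and it passed there with the pair as a replicate block (-0.20, adjusted p = 0.026), with DESeq2 and with library totals. EIF2B4 and EIF2B5, of which EIF2B5 encodes the catalytic subunit, fell in GCB lines (log2 fold changes -0.28 and -0.23). On log2(TPM + 1), before its median was taken out, EIF2B1, EIF2B2, EIF2B3 and EIF2B5 passed as lower in ABC lines as well. With that median taken out, EIF2B3 alone of these passed.

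Of the 4 eIF2 kinase genes, EIF2AK3 alone was called in a subtype. It encodes PERK, the kinase of the endoplasmic reticulum, and lies at chr2:88556741-88627576, minus strand. K422 had 39.3, 44.9, 60.8 and 48.1 CPM under AZD8186 at 6, 12, 18 and 24 h, against 16.3, 15.7, 19.6 and 18.5 CPM with DMSO. HT had 28.9, 29.03, 34.4 and 32.6 CPM under AZD8186 at 6, 12, 18 and 24 h, against 18.0, 16.7, 14.8 and 18.4 CPM with DMSO. Every treated library exceeded every DMSO library of its line, and the rise came to 1.44 ± 0.0799, adjusted p = 1.01e-04 in K422 and 0.88 ± 0.0805, adjusted p = 4.91e-06 in HT on the log2 scale. Over both GCB lines it was 1.17 ± 0.104, adjusted p = 1.19e-06. TMD8 had 15.9, 14.2 and 12.4 CPM under AZD8186 at 6, 18 and 24 h, against 9.45, 10.5 and 12.1 CPM with DMSO. OCI-Ly10 had 6.6, 7.56, 10.5 and 8.95 CPM under AZD8186 at 6, 12, 18 and 24 h, against 5.76, 8.78, 8.17 and 9.46 CPM with DMSO. The treated libraries lay above the DMSO libraries in TMD8 and overlapped with them in OCI-Ly10, and ABC lines did not pass (0.22 ± 0.127, adjusted p = 0.213, higher in 5 of 7 pairs). EIF2AK1 (HRI, the heme-regulated kinase) was higher in CPM in 8 of 8 GCB pairs by a small amount that did not pass in edgeR (0.099 ± 0.0427, adjusted p = 0.0667) and passed in DESeq2 (adjusted p = 0.035), with 0.093 ± 0.051, adjusted p = 0.185 in ABC lines. EIF2AK2 (PKR, activated by double-stranded RNA) had 0.058 ± 0.111, adjusted p = 0.686 in GCB and -0.17 ± 0.0859, adjusted p = 0.163 in ABC lines. EIF2AK4 (GCN2, activated by uncharged tRNA) had 0.15 ± 0.076, adjusted p = 0.104 and 0.20 ± 0.099, adjusted p = 0.151. EIF2AK2 was called lower in ABC lines with library totals (-0.25, adjusted p = 0.039) and on log2(TPM + 1) (-0.33, adjusted p = 0.015), but not with the median of the TPM scale taken out.

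The eIF5 and eIF6 genes all fell in GCB lines (6 of 6, median -0.39), and 3 of 6 fell in ABC lines (median -0.18), against 23.5% and 13.8% of all genes. EIF5, at chr14:103333544-103345025, plus strand, encodes the protein that triggers GTP hydrolysis on eIF2. In K422 it had 331, 262, 251 and 198 CPM under AZD8186 at 6, 12, 18 and 24 h, against 423, 429.8, 442 and 414 CPM with DMSO. HT libraries showed 156, 171, 148 and 139.6 CPM under AZD8186 at 6, 12, 18 and 24 h, against 191, 226, 195 and 206 CPM with DMSO. The levels did not overlap in either line, and in K422 the decrease deepened at each time, with log2 ratios of -0.35, -0.71, -0.82 and -1.06. EIF5 fell in GCB (-0.57 ± 0.0808, adjusted p = 4.89e-05) and in ABC lines (-0.29 ± 0.0668, adjusted p = 0.00606). EIF5A, the hypusine-containing factor that helps the ribosome past difficult peptide bonds, had 632 to 986 CPM under AZD8186 (median 767, n = 8), against 921 to 1135 CPM with DMSO (median 1042, n = 8) in GCB lines. Its treated and DMSO libraries overlapped across the GCB lines but not within K422 or within HT. It was lower in every pair of both subtypes (-0.43 ± 0.0572, adjusted p = 3.04e-05 in GCB and -0.22 ± 0.0731, adjusted p = 0.0329 in ABC lines). EIF5B, which joins the subunits, fell in both (-0.37 ± 0.0529, adjusted p = 4.98e-05 and -0.26 ± 0.0614, adjusted p = 0.00726). EIF6, which keeps the large subunit apart until initiation, fell in GCB lines (-0.22 ± 0.0525, adjusted p = 0.00336). EIF5AL1 is a near copy of EIF5A and its value is uncertain. In the eIF1 group EIF1AX, a factor of start-site scanning, fell in GCB (-0.38 ± 0.047, adjusted p = 1.81e-05) and ABC lines (-0.30 ± 0.0561, adjusted p = 0.00198), as did EIF1AD (-0.39 ± 0.0522, adjusted p = 3.53e-05 and -0.20 ± 0.0731, adjusted p = 0.0495), the ABC value being lost with either other filter on low counts. EIF1 and EIF1B did not pass in either subtype (-0.00053 and 0.077 in GCB lines, -0.042 and 0.085 in ABC lines).

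The response of GCB lines was set against that of ABC lines by an interaction test with the pair as a block. It called 6 of 65 members, where 13.4% of all genes were called. The difference was negative for EIF2B1 (-0.33 ± 0.0554, adjusted p = 6.98e-04), EIF4H (-0.22 ± 0.0537, adjusted p = 0.0119), EIF2B2 (-0.24 ± 0.0601, adjusted p = 0.0124) and EIF2B4 (-0.34 ± 0.0902, adjusted p = 0.0172), that is, their response was lower in GCB lines. It was positive for EIF2AK3 (0.97 ± 0.166, adjusted p = 8.40e-04) and EIF4EBP3 (0.91 ± 0.283, adjusted p = 0.0394), on the log2 scale with SE. EIF4EBP3 lost its call when any of 8 single pairs was left out. EIF2A had the third smallest p among positive differences and did not pass (0.13 ± 0.0842, adjusted p = 0.325). EIF2S1 and EIF5, which fell further in GCB lines, did not pass (-0.25 ± 0.0945, adjusted p = 0.0853 and -0.27 ± 0.108, adjusted p = 0.0979). None of the 10 members that rose in both subtypes passed this test. The 95% interval of the difference was -0.24 to 0.18 for EEF1A1, -0.055 to 0.44 for EEF2, -0.26 to 0.24 for EIF3F and -0.32 to 0.088 for EIF4B. Leaving out the TMD8 pair at 6 h gave 10 called members, adding EEF2KMT, EIF3B, EIF3K and EIF5.

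**Figure D3:**
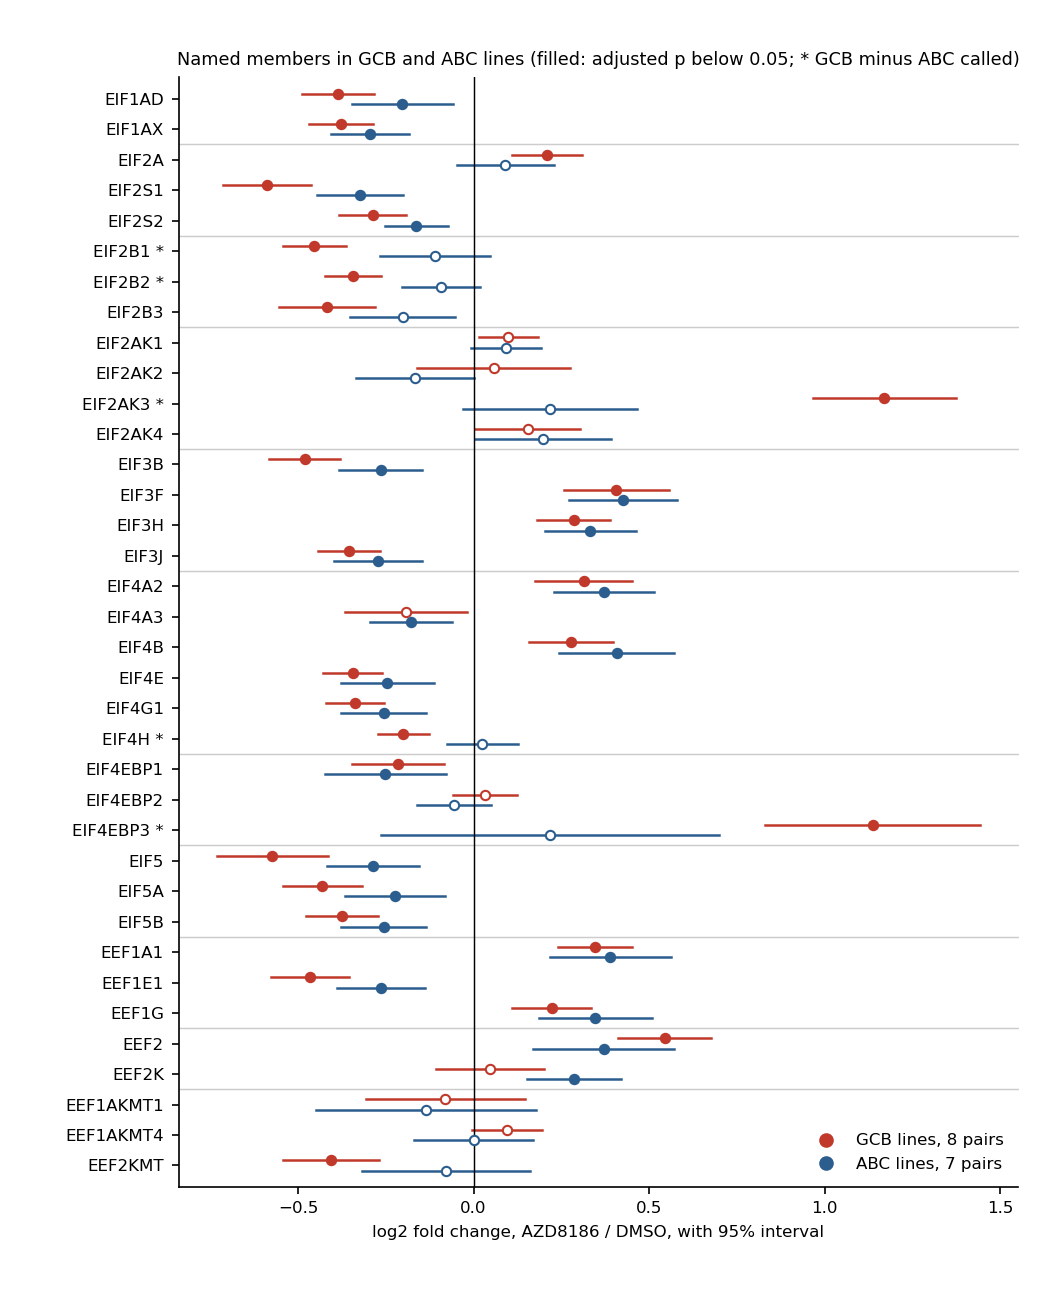
Log2 fold change, AZD8186 over DMSO, with its 95% interval for the 36 members named by rule (rows, by functional group), GCB lines (8 pairs) above ABC lines (7 pairs); filled points have an adjusted p below 0.05 and an asterisk marks a called difference between GCB and ABC lines. EIF2AK3 lies at 1.17 in GCB and 0.22 in ABC lines, while EEF1A1 lies at 0.34 and 0.39.

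Each cell line was also fitted alone. In K422 26 of 64 members fell and 15 rose, over a background of 24% and 22.9%, and in HT 24 of 65 fell and 11 rose, over 18.9% and 18.6%. In OCI-Ly10 13 of 66 fell and 12 rose, over 14.6% and 14.5%. In TMD8, with 3 pairs, 0 of 65 members were called by edgeR with TMM or DESeq2 size factors or by limma-voom, with 19 at an unadjusted p below 0.05, and 3.59% of all genes were called there in either direction. The response of TMD8 set against that of OCI-Ly10 called 0 of 65 members, with 4 at an unadjusted p below 0.05 and 0.429% of all genes called, and limma-voom also called 0. Without the TMD8 pair at 6 h it called 1, EIF4E3. The response of K422 set against HT called 13 of 65 members, where 16.6% of all genes were called. Of the 9 negative differences EIF4A3 had the smallest p (-0.52 ± 0.097, adjusted p = 0.00528), with 196, 171, 142 and 144 CPM under AZD8186 at 6, 12, 18 and 24 h, against 219, 243, 216 and 212 CPM with DMSO in K422. HT had 208, 209, 219 and 225 CPM under AZD8186 at 6, 12, 18 and 24 h, against 209.6, 200.1, 213 and 202 CPM with DMSO. The treated K422 libraries were all below their DMSO libraries, and those of HT overlapped. The other 8 were EIF2S1, EIF2S2, EIF2B3, EIF2B4, EIF3B, EIF4EBP1, EIF5B and EEF2KMT. Of the 4 positive differences EIF4A2 had the smallest p (0.44 ± 0.0841, adjusted p = 0.00561), with 219, 296, 229 and 264 CPM under AZD8186 at 6, 12, 18 and 24 h, against 174, 206, 151 and 165 CPM with DMSO in K422. The HT values were 331, 387, 303 and 328 CPM under AZD8186 at 6, 12, 18 and 24 h, against 297, 382, 289 and 299 CPM with DMSO. The K422 libraries did not overlap and those of HT did. The other 3 were the kinase genes EIF2AK3 (0.57), EIF2AK2 (0.46) and EIF2AK4 (0.39). Within lines EIF2AK4 rose in K422 (0.34 ± 0.0821, adjusted p = 0.0132) and OCI-Ly10 (0.32 ± 0.0712, adjusted p = 0.00492), and EIF2AK2 fell in HT (-0.21 ± 0.0684, adjusted p = 0.0254). This count hung on single pairs: it was 23 without the K422 pair at 6 h, 11 without that at 24 h, and 6 to 8 without any other single K422 or HT pair.

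Over time, the log2 ratios of the members that rose were in some lines larger at later times. EEF1A1 had 0.19, 0.34, 0.47 and 0.58 at 6, 12, 18 and 24 h in K422, 0.16, 0.28, 0.34 and 0.40 in HT and 0.031, 0.31, 0.50 and 0.64 in OCI-Ly10, and 0.25, 0.56 and 0.42 at 6, 18 and 24 h in TMD8. EIF3F had 0.18, 0.45, 0.74 and 0.89 in K422 and 0.056, 0.30, 0.29 and 0.34 in HT. EIF4B had 0.16, 0.36, 0.58 and 0.78 in OCI-Ly10 and 0.14, 0.43, 0.52 and 0.57 in K422. It had 0.099, 0.15, 0.18 and 0.11 in HT, and 0.32, 0.35 and 0.25 at 6, 18 and 24 h in TMD8, with no steady increase. EEF2 grew at each time in K422 and OCI-Ly10. It had 0.28, 0.52, 0.33 and 0.40 in HT, and 0.22, 0.18 and 0.044 at 6, 18 and 24 h in TMD8. Among members that fell, EIF3B had -0.66, -0.62, -0.57 and -0.61 in K422, with little change over time, while EIF1AX had -0.25, -0.41, -0.52 and -0.58 there and EIF5 also fell further at each time. The response at 18 and 24 h set against that at 6 and 12 h called 0 of 65 members in GCB lines and 0 of 65 in ABC lines with edgeR, with 2 and 10 at an unadjusted p below 0.05 and 0 by limma-voom in each. The test called 0% of all genes in either subtype, so it could not separate any gene's early and late response with these pairs. EEF1A1 came to 0.34 ± 0.102, adjusted p = 0.213 in ABC lines, and EEF1B2 had the smallest p among members there (0.36 ± 0.0993, adjusted p = 0.179).

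Members with the pyrimidine tract at their annotated start, shown above, lay on the higher side. In GCB lines 8 of 11 tested members with the tract rose and 1 fell (median log2 fold change 0.21), whereas 3 of 41 without it rose and 23 fell (median -0.21). In ABC lines 6 of 11 with the tract rose and 0 fell (median 0.17), whereas 3 of 41 without it rose and 14 fell (median -0.11). The member with the tract that fell was EIF3M. On log2(TPM + 1) EIF2D and EIF2S3, with the tract, lost their GCB calls. EEF2, EIF3K and EIF4A2, with the tract, lost their ABC calls there, as did EEF1B2 and EEF2K without it. With the median of that scale taken out, EIF2D, EIF2S3 and EIF3K still lost theirs. Of 13 tested members with no matched window, 4 rose and 3 fell in GCB lines, and 5 rose and 2 fell in ABC lines. Outside the members, 40.1% of genes with the tract rose in GCB lines and 14.6% fell, against 24.97% and 24.5% of those without it. In ABC lines 28.8% of genes with the tract rose and 9.74% fell, against 14.2% and 14.5% of those without it. Without ribosomal protein genes the shares with the tract that rose were 37.8% and 22.2%. These counts are a description, and a tract at an annotated start is not proof that the mRNA begins there in these cells. The sequence CACGTG, which reads the same on both strands, lay in the promoter windows of 15 members, or 26.8%, and in 7.26% of all windows from 250 bases before to 50 after the start. EEF1AKMT4 and EEF1AKMT4-ECE2 share the same window, and all windows include those of genes not tested here. In GCB lines 3 of 14 tested members with it rose and 5 fell, against 8 of 38 and 19 of 38 matched members without it. In ABC lines 4 of 14 with it rose and 3 fell, against 5 of 38 and 11 of 38 without it.

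**Figure D4:**
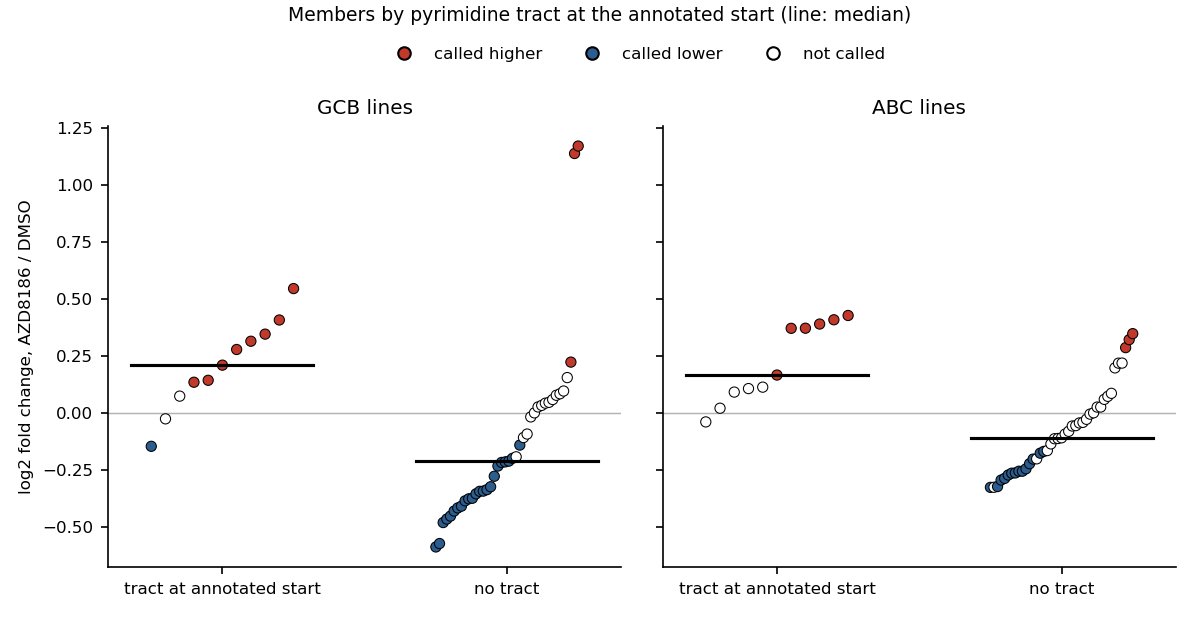
Log2 fold change, AZD8186 over DMSO, of members with (left) and without (right) a pyrimidine tract at the annotated start, in GCB and ABC lines; each point is a member, colour gives its call and the line is the median. In GCB lines the medians are 0.21 with and -0.21 without the tract.

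The members that rose had the higher median level, given as a description with no test. In GCB lines the mean DMSO level of the 15 that rose had a median of 299.9 TPM (4.83 to 5576), and that of the 27 that fell 101 TPM (1.35 to 1164). In ABC lines the medians were 380.0 TPM for the 14 that rose and 89.2 TPM for the 16 that fell. By summed TPM, the order of the groups in DMSO libraries of K422 was eEF1 (9331 ± 141), eIF3 (4473 ± 68.7), eIF4 (2719.5 ± 183), then eEF2 (1776 ± 78.1) and eIF5 with eIF6 (1702 ± 133), the last pair within their spread (SD, n = 4). Far below came eIF1 (616 ± 44.6), eIF2 (384 ± 25.8), eIF2B (300.1 ± 9.37), the 4E-BPs (267 ± 6.57) and the eIF2 kinases (105 ± 11.8).

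Other genes of translation were counted from lists, to set beside the members, and are read against the 23.5% lower and 25.9% higher of all genes in GCB lines and the 13.8% and 15.3% in ABC lines. Of the cap and poly(A) partners of initiation, 8 of 18 fell and 7 rose in GCB lines and 4 of 19 fell and 6 rose in ABC lines. PDCD4, an inhibitor of eIF4A that is degraded when S6 kinase is active, rose in both (0.66 ± 0.0722, adjusted p = 5.84e-06 in GCB and 0.60 ± 0.0736, adjusted p = 1.13e-04 in ABC lines), as did PAIP2, an inhibitor of poly(A)-binding protein (0.56 ± 0.0701, adjusted p = 1.82e-05 and 0.36 ± 0.0667, adjusted p = 0.00174). Of partners in start-site choice, eIF2 function and subunit joining, 7 of 16 fell and 3 rose in GCB and 5 of 14 fell and 0 rose in ABC lines. ABCE1, the ribosome recycling ATPase (-0.50 ± 0.05, adjusted p = 2.76e-06 and -0.36 ± 0.0589, adjusted p = 7.99e-04), and BZW1, a mimic of eIF5 (-0.31 ± 0.0507, adjusted p = 1.85e-04 and -0.30 ± 0.0639, adjusted p = 0.00407), fell in both. Of termination and rescue factors, 4 of 9 fell and 1 rose in GCB and 4 of 9 fell and 0 rose in ABC lines. The release factor genes ETF1 (-0.47 ± 0.0406, adjusted p = 8.63e-07 and -0.42 ± 0.0635, adjusted p = 4.62e-04) and GSPT1 (-0.41 ± 0.0489, adjusted p = 1.35e-05 and -0.35 ± 0.0551, adjusted p = 6.12e-04) fell in both.

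Of the enzymes that modify elongation factors, 3 of 8 fell and 1 rose in GCB and 2 of 8 fell and 1 rose in ABC lines, a list that holds EEF2K and EEF2KMT. DOHH, which completes the hypusine of eIF5A (-0.41 ± 0.0563, adjusted p = 3.78e-05 and -0.29 ± 0.0561, adjusted p = 0.002), and DPH2, of the diphthamide pathway of eEF2 (-0.50 ± 0.0604, adjusted p = 1.45e-05 and -0.30 ± 0.086, adjusted p = 0.0167), fell in both. Of mitochondrial translation factors, 4 of 11 fell and 0 rose in GCB and 1 of 11 fell and 0 rose in ABC lines, the ABC count being below the 13.8% of all genes. GFM1, a mitochondrial elongation factor, fell in both (-0.31 ± 0.0539, adjusted p = 3.08e-04 and -0.25 ± 0.0677, adjusted p = 0.0138), and MTFMT, which formylates the initiator tRNA, fell in GCB lines (-0.36 ± 0.0705, adjusted p = 7.30e-04, against -0.27 ± 0.103, adjusted p = 0.0608 in ABC lines). Of 20 mRNAs known for a TOP tract outside ribosomal proteins, 0 of 19 fell and 15 rose in GCB and 1 of 20 fell and 15 rose in ABC lines, with medians of 0.27 and 0.31. Of the 20, 11 are members, whose changes are counted above. Of the 9 others, 0 fell and 7 rose in GCB lines, and 1 fell and 6 rose in ABC lines. VIM, which encodes vimentin, stood apart in that list, higher in GCB (1.14 ± 0.42, adjusted p = 0.0344) and lower in ABC lines (-0.56 ± 0.071, adjusted p = 1.38e-04), with a difference GCB minus ABC of 1.67 ± 0.375, adjusted p = 0.00607. Of cytosolic ribosomal protein genes, 2 of 83 fell and 51 rose in GCB and 1 of 82 fell and 77 rose in ABC lines, with medians of 0.18 and 0.35.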

How the data were processed

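Bulk RNA-seq was read from 30 libraries, 1 for each cell line, treatment and time. The authors aligned reads with HISAT2 to the human transcriptome and deposited expected counts per gene estimated by RSEM, with build GRCh38.p12 per the submitters' notes; for the tools, a version is not given in the sources used. The authors also deposited TPM, which RSEM scales by transcript length and library, and it was used for levels between genes. The deposited FPKM were not used.

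Expected counts were rounded to whole numbers and tested with edgeR 4.0.16 (R 4.3.3): TMM scaling, a filter on low counts by treatment, and the quasi-likelihood test with Benjamini-Hochberg adjustment over all genes tested. Terms for cell line and time stood beside treatment within a subtype, and a term for time within a line. CPM were normalised separately in each subtype, so CPM levels of GCB and ABC lines are not compared. Differences between subtypes, lines and periods (18 and 24 h against 6 and 12 h) were interaction tests with the pair of line and time as a block. A pair comes from the same cell line and time by its labels, and 14 of 15 AZD8186 libraries correlated best with their own DMSO library in deviations from the fitted means (range of the correlation -0.0082 to 0.384). The code was run on simulated counts for the ABC, GCB, OCI-Ly10 and GCB minus ABC fits, with no effect of time in the simulation. The other fits were not simulated, and the outcome is not given here. Errors are standard errors unless SD is named. Alternatives used limma 3.58.1 and DESeq2 1.42.0.

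Named members were, by rule, the 2 with the smallest p in each functional group and subtype, all eIF2 kinases and 4E-BPs, EIF4E, EIF2S1, EIF5, EEF1A1, EEF2 and EEF2K, the 3 with the smallest p in each direction of the subtype difference, and the leading called member of each other difference; of each list, the 2 with the smallest p. Other members given with values were chosen after their values were seen. The members and lists were chosen with earlier results of these data known. EIF1AY is counted and its values are not printed. Gene positions are from GENCODE 29 on GRCh38 and start windows from RefSeq on GRCh38.p14.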

Additional observations from a re-analysis of the deposited data

Results flagged for a closer look

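The response to AZD8186 differed between GCB and ABC lines, by the interaction test of edgeR with the pair as a block, for 6 of 65 members. Over all genes 13.4% were called in that test. The log2 difference, GCB minus ABC, was -0.33 for EIF2B1, -0.22 for EIF4H, -0.24 for EIF2B2 and -0.34 for EIF2B4, and it was 0.97 for EIF2AK3 and 0.91 for EIF4EBP3.

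Within the GCB lines the response differed between K422 and HT for 13 of 65 members, near the 16.6% of all genes called. This count hung on single pairs, as given above. The log2 difference, K422 minus HT, was -0.52 for EIF4A3, -0.38 for EIF2S1, -0.42 for EEF2KMT, -0.39 for EIF2B3 and -0.35 for EIF2B4. It was -0.26 for EIF3B, -0.27 for EIF5B, -0.30 for EIF4EBP1 and -0.22 for EIF2S2. It was positive for EIF4A2 at 0.44, for EIF2AK3 at 0.57, for EIF2AK4 at 0.39 and for EIF2AK2 at 0.46. No named member had a library far from the others of its line or subtype by Dixon's test, over 72 groups examined.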

How the results depend on the processing

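Counts of called members depended on the scale and on the model terms. On log2(TPM + 1) and on log2(TPM + 0.1) 31 members fell and 5 rose in ABC lines, and at an adjusted p below 0.01 9 fell. Without terms for cell line and time 0 fell and 3 rose in ABC lines, and 12 fell and 6 rose in GCB lines. With 1 pair left out, 10 to 17 fell and 10 to 14 rose in ABC lines, and 26 to 29 fell and 14 to 16 rose in GCB lines; the 10 that fell came without the OCI-Ly10 pair at 18 h or at 24 h. The difference of GCB and ABC lines called 5 to 10 members with 1 pair left out, that of TMD8 and OCI-Ly10 0 to 1, and that of K422 and HT 6 to 23. With the pair as a replicate block 17 fell and 14 rose in ABC lines, gaining EIF2B3, and 27 fell and 14 rose in GCB lines, losing EIF2S3; it changed no other call within a subtype. Without the replicate block the difference of K422 and HT called 11. The cause of these changes was not tested. Of 1473 values of the named members under alternatives, 1349 stayed the same, 71 were weaker, 28 moved, 25 were stronger and 0 reversed. Without terms for cell line and time 32 of 72 values were weaker. EIF3G and EIF3K, whose values were below 0 in ABC lines on log2(TPM + 1), are not among the named members.
Each line and time had 1 library per treatment, TMD8 had 3 pairs, and low genes such as EIF4EBP3 rest on few counts.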
